A study of Mus musculus with 6 samples.

Results

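The genes described here were 8 genes of microglia, the resident macrophages of the brain, and Spp1, which encodes osteopontin. They were taken by symbol from a table of 78298 gene identifiers, and all 9 were found. All 9 also passed the filter on low values, a mean of at least 10 normalised counts over the 6 libraries, which left 17391 genes for testing. The choice of members drew on the difference between Top2b-low and wild-type (WT) libraries in these same data. Differences between the genotypes are therefore given for the 9 genes as a description, with no test.

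Tissue of the left brain of 3 Top2b-low and 3 WT male mice gave polyadenylated RNA for bulk sequencing, to see how lowered Top2b alters the transcriptome of the adult brain. Top2b-low mice carried 2 copies of an allele that CRISPR/Cas9 had tagged with an auxin-inducible degron at the 5′ end of the coding sequence of Top2b, which encodes topoisomerase IIβ. No compound was given to either genotype. The labels give the age as 10 weeks and the series text as 3.5 months. The library name of Top2b-low replicate 3 ends in dNdN and those of the other Top2b-low libraries in Homo, a difference that the labels do not explain. Top2b itself had 2152, 2314 and 1965 normalised counts in Top2b-low libraries, against 3160, 3014 and 2485 in WT libraries. Replicate 3 of each genotype has a library name that begins with N22, and the labels do not say what N22 stands for. The N22 libraries held 35246703 (Top2b-low) and 28629911 (WT) reads and the other 4 between 16963067 and 17413959, so the name and the depth cannot be told apart. In bulk RNA, fewer cells of a type and less RNA per cell cannot be told apart either.

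Microglia live in the brain parenchyma on signals through the receptor CSF1R, survey it with processes guided by P2RY12 and listen to neurons through the fractalkine receptor CX3CR1. TREM2 is a surface receptor for lipids that signals through the adaptor TYROBP, and in mouse models of amyloid disease it is needed for the switch from homeostatic to disease-associated microglia, a state that includes Spp1. Osteopontin is a secreted, phosphorylated matrix protein that binds integrins and CD44. In the mouse brain its mRNA is known from reactive microglia and border macrophages, and also from large projection neurons, many of them in the brain stem.

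RefSeq promoter sequences of the GRCm38.p6 build were used for 5 of the 9 genes, P2ry12, Cx3cr1, Trem2, Aif1 and Spp1. Csf1r was left out of the search by choice, so whether its promoter holds the motif below is not reported. The 250 bases before each start were searched on both strands for AGGAAGT, the core of many sites of PU.1, the transcription factor that specifies macrophages and microglia. Those of P2ry12 and of the first Spp1 start are shown because they set a homeostatic gene beside Spp1 and because each holds the motif, which is in capitals. Both are 5′ to 3′ on the strand of the gene, P2ry12 at chr3:59262986-59263235 on the minus strand and Spp1 at chr5:104434861-104435110 on the plus strand.
P2ry12: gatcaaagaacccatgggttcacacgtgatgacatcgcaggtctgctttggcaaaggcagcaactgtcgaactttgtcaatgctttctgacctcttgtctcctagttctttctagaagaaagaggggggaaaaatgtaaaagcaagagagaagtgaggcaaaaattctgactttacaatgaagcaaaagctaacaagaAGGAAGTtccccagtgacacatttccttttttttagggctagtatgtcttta
Spp1: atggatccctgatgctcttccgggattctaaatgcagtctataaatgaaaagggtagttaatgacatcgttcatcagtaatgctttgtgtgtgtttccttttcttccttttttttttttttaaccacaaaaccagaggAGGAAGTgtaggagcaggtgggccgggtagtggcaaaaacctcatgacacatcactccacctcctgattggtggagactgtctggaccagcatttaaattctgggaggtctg
The motif began 52 bases before the start of P2ry12 and 112 bases before that of Spp1. It was in neither the window of the second Spp1 start nor those of Cx3cr1, Trem2 and Aif1. Of 32817 mouse promoters of that length, 7.69% held it. A match of letters does not show binding.

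The 4 homeostatic genes differed between genotypes by 0.23 log2 units or less, in both directions. P2ry12, the receptor for ADP that guides microglial processes, had 602, 555 and 705 normalised counts in Top2b-low libraries, against 526, 498 and 558 in WT libraries. The lowest Top2b-low library was just below the highest WT library. Its mean was 621 ± 77.0 in Top2b-low and 527 ± 30.4 in WT (SD, n = 3 each), which is 17.7% higher in Top2b-low and 0.23 on the scale of log2(normalised count + 1), with an SE of 0.11. All log2 differences below are on this scale, which understates the change of low genes.

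Tmem119, a membrane protein used to mark microglia, differed the other way. It had 308, 272 and 313 normalised counts in Top2b-low libraries, against 311, 341 and 336 in WT libraries, a log2 difference of -0.15 with an SE of 0.11. Top2b-low replicate 3 was above WT replicate 1, so that these groups overlapped too. Cx3cr1 had 837, 924 and 977 normalised counts in Top2b-low libraries, against 837, 843 and 922 in WT libraries. Csf1r, the receptor for CSF1 and IL-34, had 1530, 1612 and 1444 normalised counts in Top2b-low libraries, against 1455, 1535 and 1481 in WT libraries. It varied least of the 9 genes, its highest and lowest libraries differing by 0.16 log2 units, and the log2 difference between genotypes was 0.04 with an SE of 0.08. That of Cx3cr1 was 0.07 with an SE of 0.09.

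**Figure D1:**
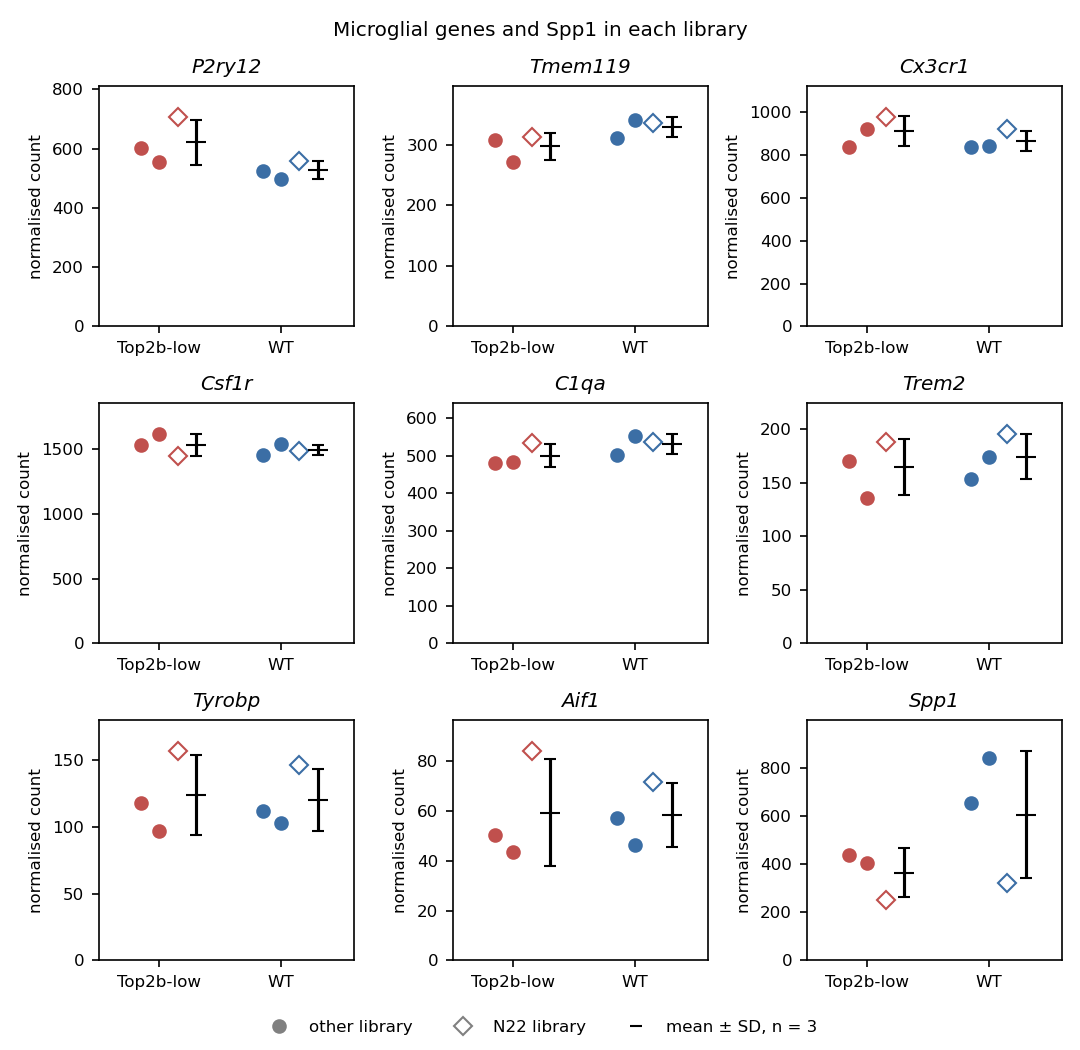
Normalised counts of the 9 genes in each library, Top2b-low left of WT, with open symbols for the N22 libraries and bars for the mean and SD of 3 libraries. The groups overlap in every panel, and in the Spp1 panel both N22 libraries, at 249 and 321, lie below the other 4.

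C1qa encodes a chain of C1q, which starts the classical complement cascade and tags synapses for removal. It had 481, 484 and 535 normalised counts in Top2b-low libraries, against 503, 554 and 538 in WT libraries. Aif1, the calcium-binding protein known as IBA1, had 50.5, 43.7 and 84.0 normalised counts in Top2b-low libraries, against 57.1, 46.4 and 71.8 in WT libraries. In both groups the N22 library was the highest for Aif1. It was the lowest of the 9 genes in reads, with 36 to 142 per library.

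The TREM2 pair differed between genotypes by less than the SE of each gene. Trem2 had 170, 136 and 188 normalised counts in Top2b-low libraries, against 153, 174 and 195 in WT libraries, a log2 difference of -0.09 with an SE of 0.16. Tyrobp had 118, 97.1 and 157 normalised counts in Top2b-low libraries, against 112, 103 and 147 in WT libraries, a log2 difference of 0.03 with an SE of 0.22. The highest library of each genotype was again the N22 library, for both genes.

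Spp1 behaved otherwise. It had 439, 403 and 249 normalised counts in Top2b-low libraries, against 651, 841 and 321 in WT libraries. The 2 WT libraries outside N22 stood above every Top2b-low library, while the WT library of N22 lay below Top2b-low replicates 1 and 2. The mean was 364 ± 101 in Top2b-low and 604 ± 263 in WT (SD, n = 3 each), a difference of -39.8%, with a log2 difference of -0.66, an SE of 0.37 and a 95% interval of -1.52 to 0.19. Among the 4 libraries outside N22 the mean of Top2b-low differed from that of WT by -43.5%, and in the N22 pair by -22.5%. Single libraries weighed on this value, which was -0.37 without WT replicate 2 and -1.06 without WT replicate 3.

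**Figure D2:**
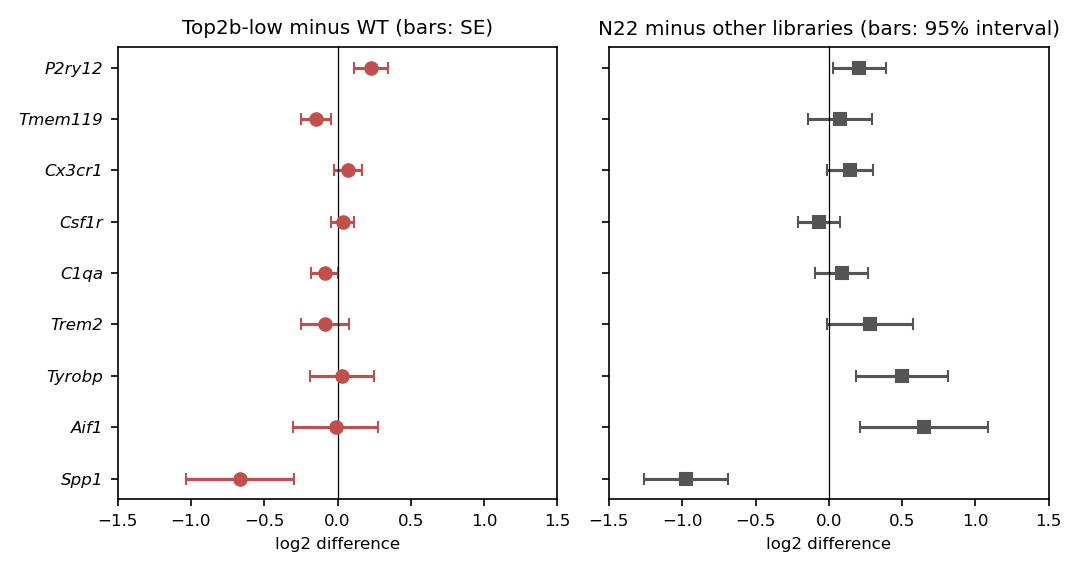
Log2 differences of the 9 genes from the limma fits, Top2b-low minus WT with bars for the SE and N22 minus other libraries with bars for the 95% interval. Spp1 is the lowest gene in both comparisons, at -0.66 and -0.98.

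None of the 9 genes had groups that did not overlap over the 6 libraries, against 5.74% of the 17391 genes tested, 2.7% higher and 3.04% lower in Top2b-low. In the 4 libraries outside N22, P2ry12 was higher in both Top2b-low libraries than in both WT libraries, and Tmem119, C1qa and Spp1 were lower, which is 4 of 9 where 34.1% of all genes did so. Across all genes limma found no difference between genotypes at an adjusted p under 0.05 (0% of 17391), nor did edgeR or DESeq2. Unadjusted p-values under 0.05 numbered 262 with limma, 250 with edgeR and 168 with DESeq2. Between libraries of the same replicate number, Spp1, Tmem119 and C1qa were lower in Top2b-low in 3 of 3 pairs and P2ry12 was higher in 3 of 3. Of all genes 28.0% had 1 direction in all 3 pairs, 14.0% higher and 14.0% lower in Top2b-low. The SEs above are those of the unpaired fit. The mean log2 difference of the 8 microglial genes between genotypes was 0.00, and their summed level was 4095 to 4402 normalised counts in Top2b-low libraries and 3954 to 4249 in WT libraries.

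Genes of other brain regions also varied between genotypes. The summed level of 10 hindbrain neuron genes was 989, 716 and 152 normalised counts in Top2b-low libraries, against 1371, 1544 and 246 in WT libraries, and the groups overlapped. Of its 6 tested genes 2 were higher and 4 lower in Top2b-low. Lower in Top2b-low were also 5 of 5 tested Hox genes, 8 of 10 cerebellar genes and 8 of 9 tested genes of the hypothalamus, beside 8806 of all 17391 genes. The Hox count was partly set by the filter, which some of these genes passed through the WT libraries. Among them, Hoxb3 had a mean of 8.99 in Top2b-low and 22.7 in WT, and Hoxb4 4.89 and 16.9. The cerebellar count drew on the N22 pair, where these genes summed to 778 and 1111 normalised counts, against 19634 to 25898 elsewhere. In the 4 libraries outside N22, 5 cerebellar genes were higher and 5 lower in Top2b-low, with a median log2 difference of 0.01. The hypothalamic genes summed to 1258, 185 and 166 in Top2b-low libraries, against 1278, 1474 and 2207 in WT libraries, with no overlap between the groups. No gene of these lists was called between genotypes, and their part in the level of Spp1 was not tested.

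The comparison of N22 with the other libraries did not enter the choice of members and was tested with limma, with genotype as a term and adjustment over all 17391 genes. It was made with earlier results on this split known. Spp1 had 249 and 321 normalised counts in the N22 libraries of Top2b-low and WT, against 439, 403, 651 and 841 in the other 4. It fell by 51.1% in N22, a log2 difference of -0.98 with an SE of 0.13 and a 95% interval of -1.26 to -0.69 (adjusted p = 0.000601, lower in 2 of 2 N22 libraries than in any other). The adjusted p ran from 2.41e-09 to 0.0322 over all alternatives tried.

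No microglial gene was called lower with it. Tyrobp was higher in N22, at 157 and 147 normalised counts against 118, 97.1, 112 and 103 elsewhere (limma log2 difference 0.50, SE 0.14, adjusted p = 0.0256). Aif1 was also higher, at 84.0 and 71.8 normalised counts against 50.5, 43.7, 57.1 and 46.4 elsewhere (limma log2 difference 0.65, SE 0.20, adjusted p = 0.0334). Both calls depended on single libraries. The limma adjusted p for Tyrobp was 0.0503 without Top2b-low replicate 2, 0.226 without Top2b-low replicate 3, 0.0541 without WT replicate 2 and 0.141 without WT replicate 3, in a range of 0.0174 to 0.226 over the alternatives. That for Aif1 was 0.0669, 0.348, 0.0690 and 0.107 without the same libraries, in a range of 0.0238 to 0.348.

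The other 6 microglial genes did not pass the test. Their log2 differences between N22 and the other libraries were 0.28 for Trem2 (limma adjusted p = 0.144), 0.21 for P2ry12 (0.0846), 0.14 for Cx3cr1 (0.156), 0.09 for C1qa (0.455), 0.08 for Tmem119 (0.589) and -0.07 for Csf1r (0.469). In all, 3 of the 9 genes passed, 2 higher and 1 lower in N22. Of all genes tested 28.0% passed, 11.3% higher and 16.7% lower in N22, 4864 genes in all. The number passing was 1711 without Top2b-low replicate 3 and 1945 without WT replicate 3.

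Set beside each other by role, the members differed by library name. The 4 homeostatic genes P2ry12, Tmem119, Cx3cr1 and Csf1r, each centred on its own mean, averaged 0.02 ± 0.06 log2 units in Top2b-low and -0.02 ± 0.05 in WT (SD, n = 3 each). Their mean was 0.09 higher in N22 than in the other libraries. Trem2 and Tyrobp averaged 0.27 and 0.25 in the N22 libraries of Top2b-low and WT, against -0.01, -0.30, -0.12 and -0.09 in the others. Spp1 stood at -0.83 and -0.47 in the same 2 libraries, against -0.02, -0.14, 0.55 and 0.92. In the N22 libraries the TREM2 pair was thus highest and Spp1 lowest. Outside N22 both were lowest in Top2b-low replicate 2, at -0.30 and -0.14.

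**Figure D3:**
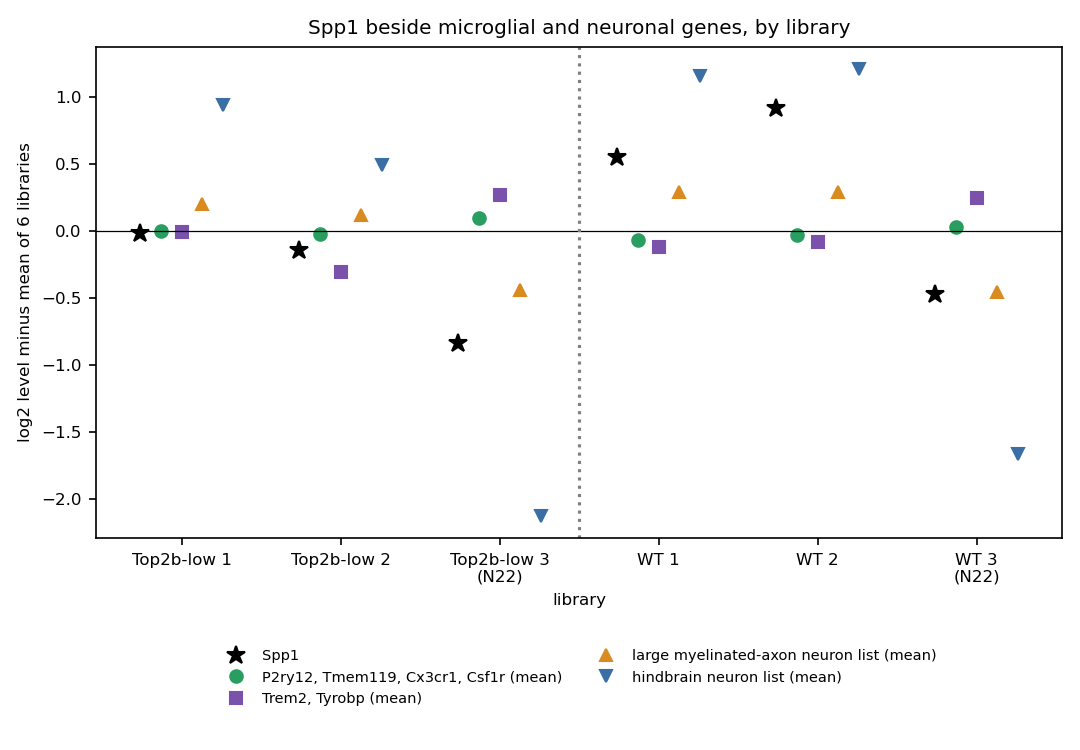
Mean log2 level in each library relative to the 6-library mean, for the 4 homeostatic genes, for Trem2 with Tyrobp, for Spp1 and for the lists of large-axon and hindbrain neurons, Top2b-low libraries left of WT. Spp1 spans 1.75 log2 units over the libraries, with its low points in N22, where the microglial genes are level or higher.

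The distance between 2 profiles was measured as the root mean square difference of their centred log2 levels over the 6 libraries, where 0 means the same profile. The mean of the 8 microglial genes lay 0.675 from Spp1, and the single genes lay between 0.572 for Tmem119 and 0.856 for Aif1. A flat profile lay 0.588 from Spp1, and the median of 12570 genes with a mean of at least 50 lay at 0.584. By this measure Spp1 was no nearer to the microglial mean than to a gene that does not vary. The distance counts the size of a swing as well as its direction, and it carries no test. The points share libraries and depth.

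Further microglial genes came from lists chosen by known function. Of 27 homeostatic genes, all tested, 19 were higher and 8 lower in Top2b-low, with none called and a median log2 difference of 0.06. Over all genes 8585 were higher and 8806 lower, with a median of -0.00. Between N22 and the other libraries 4 of the 27 passed higher and 1 lower in N22, where 11.3% and 16.7% of all genes did. Crybb1, a crystallin that marks microglia, had 91.1 and 69.7 normalised counts in N22, against 23.4, 38.8, 29.2 and 36.3 in the other libraries (limma adjusted p = 0.00508). P2ry13, a second ADP receptor, had 261 and 252 in N22, against 175, 178, 152 and 143 in the others (limma adjusted p = 0.00226). The cathepsin gene Ctss was higher by 0.34 log2 units in N22 (limma adjusted p = 0.0165). The gene that passed lower was Slco2b1, a transporter of organic anions, named after its value was seen. It had 358 and 340 in N22, against 391, 426, 457 and 429 in the others (limma adjusted p = 0.0408). Its call was lost without any 1 library other than Top2b-low replicate 1 (0.0702 to 0.383). The calls of the other 3 named genes were lost without Top2b-low replicate 3 for Crybb1 (limma adjusted p = 0.125) and Ctss (0.258), without WT replicate 1 for Ctss (0.0513), and without WT replicate 3 for P2ry13 (0.0624).

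Of 9 genes of signalling below TREM2 and TYROBP, 8 were tested, and 4 were higher and 4 lower in Top2b-low. Inpp5d, the lipid phosphatase SHIP1 that restrains this pathway, had 214, 219 and 275 normalised counts in Top2b-low libraries, against 230, 201 and 236 in WT libraries. Lyn, a SRC-family kinase that neurons express too, was the one gene of the list that passed between N22 and the others, and fell by 0.86 log2 units in N22 (limma adjusted p = 0.000954). Of 12 complement genes 7 were higher and 5 lower in Top2b-low, and 2 passed lower in N22. Of all genes 16.7% passed lower in N22.

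The tested genes of the disease-associated state, which Spp1 is part of, showed no common direction. Of 25 genes of that state 22 were tested, and 9 were higher and 13 lower in Top2b-low, with a median log2 difference of -0.01. The filter left out Cst7, Itgax and Clec7a, so the counts do not cover them. Their means were 1.41, 5.46 and 10.3 in Top2b-low, against 1.69, 3.86 and 5.80 in WT. Between N22 and the others 2 passed higher and 2 lower in N22, where 11.3% and 16.7% of all genes did. Lpl, a lipase induced in that state, had 539 and 480 normalised counts in N22, against 438, 433, 339 and 414 elsewhere (limma adjusted p = 0.0278). Its call was lost without Top2b-low replicate 3 (limma adjusted p = 0.156), WT replicate 1 (0.0689) or WT replicate 3 (0.211). Csf1, a ligand of CSF1R, fell by 0.37 log2 units in N22 (limma adjusted p = 0.00837), a call lost without Top2b-low replicate 3 (0.118) or WT replicate 3 (0.0604). Apoe, the lipid carrier that astrocytes make as well, had 20412, 17383 and 19964 normalised counts in Top2b-low libraries, against 19113, 18887 and 21926 in WT libraries. The other CSF1R ligand, Il34, which neurons make, had 751 and 780 in N22, against 576, 569, 543 and 584 elsewhere (limma adjusted p = 0.00255), a call lost without WT replicate 3 (0.0550).

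Osteopontin receptors had no common direction between N22 and the other libraries. Of 10 receptor genes 9 were tested, and 5 were higher and 4 lower in Top2b-low. Between N22 and the others 1 passed higher, Itga8, and 3 passed lower, Itgb1, Itgb5 and Cd44. Of all genes 11.3% passed higher and 16.7% lower. Itgb5, an integrin chain that pairs with αv, had 728 and 790 normalised counts in N22, against 1010, 1040, 1048 and 1005 elsewhere (limma adjusted p = 0.0015). Cd44, the hyaluronan receptor, had 73.4 and 86.8 in N22, against 126, 130, 117 and 119 elsewhere (limma adjusted p = 0.0117), and lost its call without Top2b-low replicate 3 (0.198). Itga8 and Itgb1 were called with a limma adjusted p of 0.0296 and 0.0456. The call of Itga8 was lost without any 1 library other than WT replicate 2 (0.0511 to 0.374), and that of Itgb1 without any 1 library other than Top2b-low replicate 2 (0.0659 to 0.370). With all libraries, Itgb1 was not called without the filter (0.101), with quantile (0.131) or TMM scaling (0.0625), without the trend (0.145), with edgeR (0.0585) or with DESeq2 (0.0751). Itga8 was not called without the filter (0.0568), without the trend (0.0530) or with DESeq2 (0.0755).

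Among 5 genes for enzymes that modify osteopontin, 3 were tested and all 3 were lower in Top2b-low. Tgm2, a transglutaminase that cross-links it, had 354, 352 and 256 normalised counts in Top2b-low libraries, against 417, 501 and 284 in WT libraries, with the N22 libraries lowest. It fell by 0.58 log2 units in N22 (limma adjusted p = 0.00328), and not called without WT replicate 3 (0.0758). Dmp1, of the same family of bone matrix phosphoproteins as Spp1, had 118 and 99.6 in N22, against 143, 172, 174 and 192 elsewhere (limma adjusted p = 0.0115), and was not called without WT replicate 3 (0.218). Of the 9 genes of that family and of bone, 4 were tested and Dmp1 was the one that passed. Of all genes 28.0% passed.

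Spp1 was next compared with genes of neurons and of hindbrain. A list of 10 genes of neurons with large myelinated axons had the profile nearest to Spp1 of the 24 lists, at 0.348. Lists of other kinds were not far behind, with astrocytes at 0.411, osteopontin modifiers at 0.429 and fibroblasts and meninges at 0.439. Of the 10 large-axon genes 9 passed lower in N22, where 16.7% of all genes did. Nefh, the heavy neurofilament of large axons, had 3266, 3098 and 1717 normalised counts in Top2b-low libraries, against 3900, 4018 and 1898 in WT libraries. Its groups overlapped as those of Spp1 did, with both N22 libraries lowest (limma log2 difference -0.97, adjusted p = 5.16e-06). Syt2, a fast calcium sensor for transmitter release, had 1676 and 1944 in N22, against 4579, 4623, 5179 and 5052 elsewhere (limma adjusted p = 1.23e-07). Vamp1, a vesicle SNARE of such neurons, fell by 0.37 log2 units in N22 (limma adjusted p = 0.00137).

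Hox genes and some genes of hindbrain neurons fell much further than Spp1 in N22. Of 19 Hox genes, which mark hindbrain and spinal cord by position, 18 were at 0 in both N22 libraries. The 5 tested passed lower in N22, with a median log2 difference of -4.44. Being at 0 in N22, these 5 had passed the filter through the other libraries alone. Of 10 genes of hindbrain neurons 6 were tested, and 4 passed lower. Slc6a5, the glycine transporter of inhibitory neurons in brain stem and cord, had 587, 422 and 14.8 normalised counts in Top2b-low libraries, against 855, 1018 and 42.0 in WT libraries (limma log2 N22 difference -4.71, adjusted p = 6.82e-08). Glra1, a glycine receptor subunit, had 213, 135 and 82.2 in Top2b-low libraries, against 295, 315 and 105 in WT libraries (limma log2 N22 difference -1.28, adjusted p = 0.00103). All 10 cerebellar genes also passed lower in N22. By distance, hindbrain neurons lay 0.900 from Spp1, Hox genes 1.59 and cerebellum 2.21, all further than the microglial mean. On average these lists fell by more than Spp1 in N22.

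**Figure D4:**
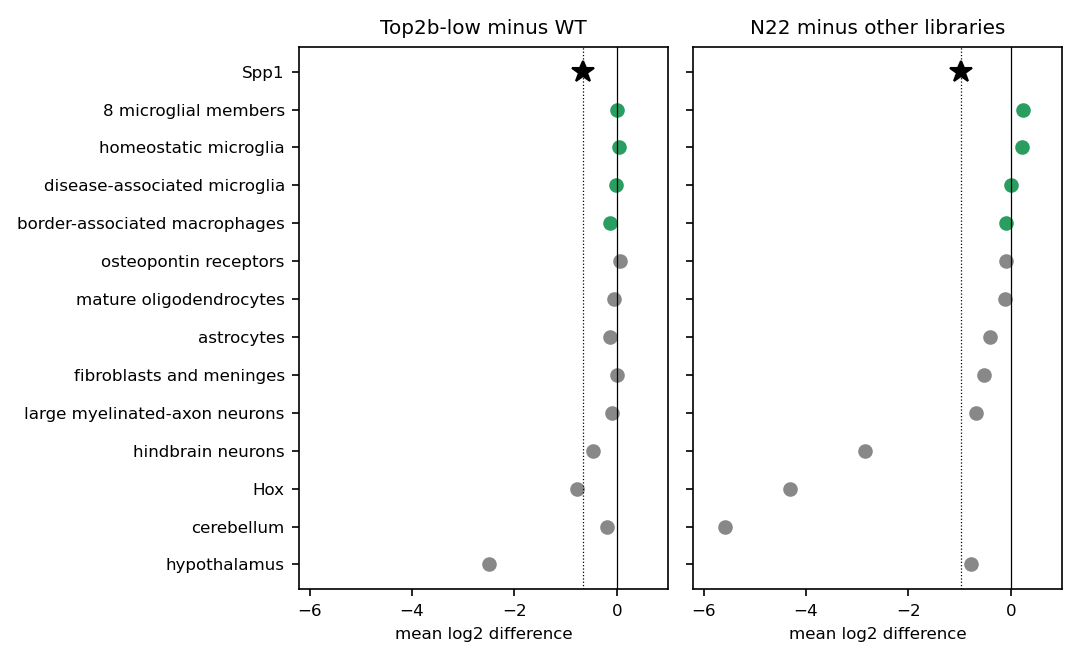
Mean log2 difference over the tested genes of 13 groups of genes, Top2b-low minus WT in one panel and N22 minus other libraries in the other, with Spp1 on top. The 8 microglial genes lie at 0.00 in the first panel and 0.23 in the second. Spp1, at -0.98 in the second, lies between the lists of hypothalamus (-0.77) and hindbrain neurons (-2.84), with large-axon neurons at -0.67.

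The order of the libraries was also described. In Spp1, Top2b-low libraries were below WT libraries both outside N22 and within N22, and the N22 libraries were below the other 4. This order was defined after its values were seen and uses the genotype values by which members were chosen, so the counts below describe and support nothing. A gene that is higher in N22 cannot meet it. It was met by 490 of the 17391 genes tested, or 2.82%. None of the other 8 members, the 27 homeostatic genes or the 22 disease-associated genes met it. In the list of large-axon neurons 4 of 10 did, Nefh, Syt2, Esrrg and Vamp1, and among hindbrain neurons 2 of 6, Glra1 and Slc6a5. None of the 10 cerebellar genes did. Hox genes could not meet it, being at 0 in the WT library of N22. Genes of other lists that met it included Tgm2, Tgfb1 and Flt1.

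**Figure D5:**
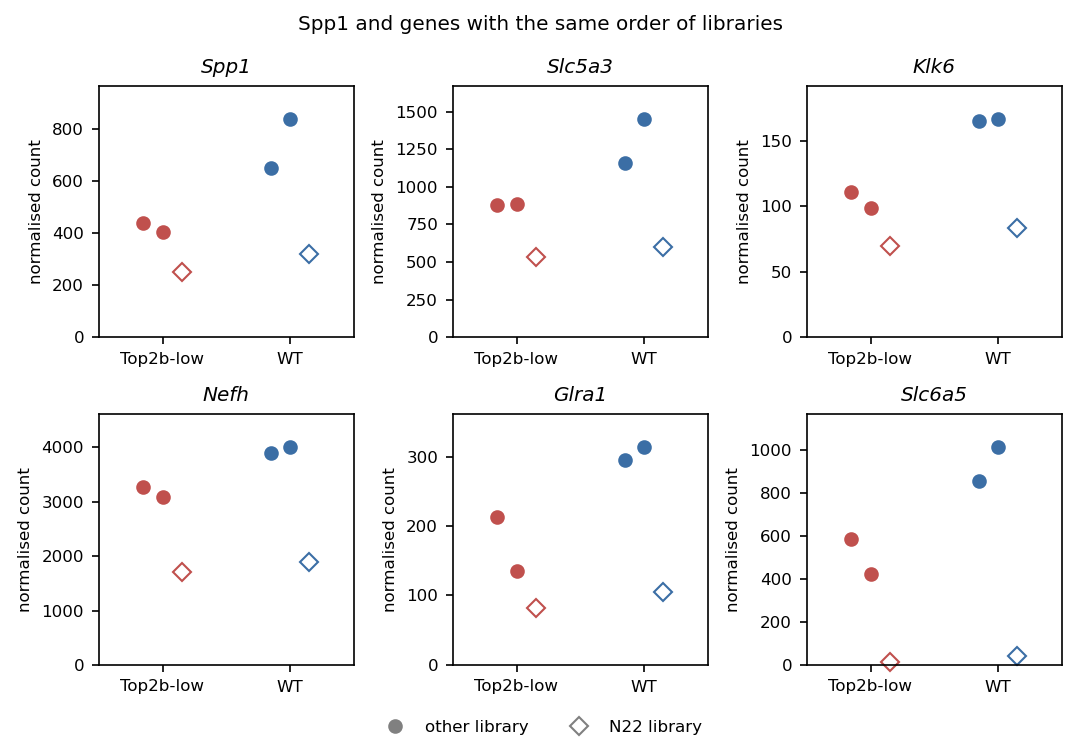
Normalised counts per library of Spp1 beside genes that share its order of libraries, Top2b-low left of WT, with open symbols for N22. In each panel both N22 libraries lie lowest and Top2b-low libraries lie below WT libraries both within N22 and outside it.

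The 6 genes nearest to Spp1 in profile, among 12570, were Slc5a3, Serpinb1b, Klk6, Lingo4, Irx2 and Plekhf1, at distances from 0.128 to 0.208 over the 6 libraries. Slc5a3, the sodium-dependent transporter of myo-inositol, had 880, 887 and 532 normalised counts in Top2b-low libraries, against 1161, 1454 and 602 in WT libraries. Klk6, a secreted serine protease of oligodendrocytes, had 111, 98.3 and 69.8 in Top2b-low libraries, against 165, 167 and 83.2 in WT libraries. None of the 6 was on a list of microglial genes, nor on any other list compared here. All 6 passed the limma test lower in N22, with log2 differences from -1.31 (Lingo4) to -0.78 (Klk6), the highest adjusted p being 0.0106 for Serpinb1b. Without WT replicate 3 those of Serpinb1b and Klk6 were 0.158 and 0.106, and without Top2b-low replicate 3 those of Serpinb1b and Plekhf1 were 0.0531 and 0.0644.

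Other cells that could carry these transcripts were measured too. The summed level of 10 genes of border-associated macrophages was 649 to 773 normalised counts in Top2b-low libraries and 645 to 807 in WT libraries. Of the 8 tested, 5 were higher and 3 lower in Top2b-low, and 0 were called. The groups of 2 of the 8 did not overlap, both lower in Top2b-low, where 3.04% of all genes did so. These were Lyve1 and Ms4a7. Ms4a7 passed the filter through the WT libraries, with a mean of 6.64 in Top2b-low and 14.6 in WT. Folr2, which the filter left out, did not overlap either, with means of 5.42 and 10.5. In N22 the sum was 645 to 649, against 689 to 807 elsewhere. Stab1, which held 299 to 407 of the sum, was the 1 tested gene of the list that passed lower in N22. The mean log2 profile of the list was lowest in Top2b-low replicate 2, at -0.27. It stood at -0.08 and -0.05 in the N22 libraries of Top2b-low and WT. The part of these cells in the level of Spp1 was not tested. Mrc1, the mannose receptor that defines them, had 128 and 117 in N22, against 144, 161, 131 and 162 elsewhere (limma adjusted p = 0.152). Genes of monocytes and neutrophils summed to 60.9 to 169 in Top2b-low libraries and 37.0 to 122 in WT libraries, and those of fibroblasts and meninges to 3065 to 4758 in Top2b-low and 3206 to 4363 in WT libraries. Of the fibroblast list 6 of 8 genes passed lower in N22, as did 4 of 7 astrocyte genes, where 16.7% of all genes did. The part of fibroblasts and astrocytes in the level of Spp1 was not tested.

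In GENCODE vM21, exons of P2ry12 overlap those of Med12l on the opposite strand, exons of Csf1r those of Hmgxb3 and exons of Cx3cr1 those of Gm33858. Whether counting used strand is not given, so the levels of P2ry12, Csf1r and Cx3cr1 are uncertain to that extent. Hmgxb3 had 1031, 1078 and 954 normalised counts in Top2b-low libraries, against 972, 1031 and 1056 in WT libraries, and Gm33858 reached 7.10 at most. Med12l had 1447, 1460 and 1115 normalised counts in Top2b-low libraries, against 1507, 1444 and 1130 in WT libraries, and thus was lower in N22 where P2ry12 was higher. The transcript that overlaps Spp1 on its own strand, Gm42793, reached 2.51 at most.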

How the data were processed

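The authors deposited normalised counts, a signal for each gene in 6 libraries. RSEM and the build mm39 are named, per the submitters' processing notes. The aligner, the annotation and strand use were not given in the sources used here. All values were whole multiples of a unit per library (100%, tolerance 1e-06), so whole reads were recovered. They may be rounded RSEM estimates. The floor of 3 reads, 1.77 to 3.76 normalised counts, covers counting error only. Gene symbols came from GENCODE vM21, which matched 51498 identifiers holding 99.4% or more of the reads. Promoter coordinates are of GRCm38.p6 and were not joined to the table.

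Genes with a mean of at least 10 were compared on log2(normalised count + 1) with limma 3.58.1 in R 4.3.3 (two-sided, empirical Bayes with intensity trend, Benjamini-Hochberg over 17391 genes, threshold 0.05). The genotype fit had no covariate and the N22 fit had genotype. Alternatives were edgeR 4.0.16 and DESeq2 1.42.0 on recovered reads, pseudocounts 0.5 and 8, no filter or a mean of 50, quantile and TMM scaling, no trend, each library left out, a replicate block and an N22 term.

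Groups came from the titles. The series text counts mice per genotype, so libraries were taken as separate animals. Within genotypes, no 2 libraries agreed within sampling noise (chi-square per degree of freedom 4.27 to 39.4). Deviations from the group means correlated at 0.33, 0.35 and 0.68 between libraries with the same replicate number. All were above 0.1, so by rule the numbers were taken to pair the libraries, although Top2b-low replicate 2 and WT replicate 1 also correlated at 0.37. Members and gene lists were chosen with earlier results of these data known. Named besides the 9 members were, of each list, up to 4 genes by level and up to 3 by the smallest p of the N22 comparison, and the 6 genes nearest to Spp1 in profile. The genes with the library order of Spp1 that fall outside this rule, and Med12l, Hmgxb3, Gm33858, Gm42793 and Slco2b1, were named after their values were seen. So were Cst7, Itgax, Clec7a, Lyve1, Ms4a7 and Folr2.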

Additional observations from a re-analysis of the deposited data

How the results depend on the processing

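No difference that passed a test changed sign. Of the untested differences between genotypes, those of Spp1, P2ry12, Tmem119, Cx3cr1 and C1qa kept their sign under all alternatives run, while those of Csf1r, Trem2, Tyrobp and Aif1, all near 0, did not. Aif1, at -0.01 with limma, was at 0.04 with edgeR and with DESeq2, and Csf1r, at 0.04, was at -0.04 in the N22 pair. With all 6 libraries, limma called 0 genes between genotypes, and the count was 14 with DESeq2 and an N22 term, 11 with DESeq2 and a replicate block, and 0 to 1 with single libraries left out, the 1 being without Top2b-low replicate 1. With the replicate block in limma, 0 genes were called and Spp1 differed by -0.66, and the block changed no other call. The number of members whose groups did not overlap was 4 in the 4 libraries outside N22 and 0 to 2 with single libraries left out. Between N22 and the other libraries 4864 genes were called, against 2181 without the intensity trend and 1711 to 4576 with single libraries left out. The cause of these shifts was not tested, apart from the smaller number of libraries. The difference of Spp1 between genotypes ran from -1.06 to -0.37 with single libraries left out, and the mean of the 8 microglial genes from -0.09 to 0.08, changing sign. P2ry12 passed the N22 test with quantile scaling (adjusted p = 0.0399, limma) and with edgeR (0.0458). Without a filter and with DESeq2, neither Tyrobp nor Aif1 passed it, nor did Aif1 without the trend. Without the trend, the N22 calls of Ctss (adjusted p = 0.0895, limma), Lpl (0.0897), Dmp1 (0.0564) and Slco2b1 (0.0879) were lost too, as were those of Lpl (0.0623) and Slco2b1 (0.0751) without the filter, of Slco2b1 with quantile (0.0791) or TMM scaling (0.0524) and with DESeq2 (0.123), and of Serpinb1b without the genotype term (0.0660). The count of groups that do not overlap has no value for other tests, pseudocounts, filters or terms, and the N22 pair alone gives no gene calls. Aif1, with 36 to 142 reads per library, is limited by depth, and 3 mice per genotype limit every comparison.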
